A study of Mus musculus with 20 samples.

Results

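Intermittent hypoxia, a laboratory model of the repeated oxygen swings of sleep apnea, was compared with room air in subcutaneous adipose tissue of mice. The comparison rests on 8 of the 20 arrays of the series, 4 from hypoxic animals and 4 from animals kept in room air, chosen by the words Hyp and NonHyp in the array titles. Each side holds 2 arrays titled Con and 2 titled Glucose, which gives 4 groups of 2 arrays: ConHyp, GlucoseHyp, ConNonHyp and GlucoseNonHyp. Animals were 12 weeks old and of the strains C57BL-6J and C57BL-6J-Lep, the latter with an altered leptin gene, and the strain of each array is not stated. Nor do the labels explain the words Con and Glucose. Chamber oxygen fell from 20.9% to 5% within 30 seconds and returned to 20% within another 30 seconds, for 16 hours a day over 5 days. The arrays of a group carry the letters a and b, called number 1 and number 2 here, and nothing in the labels says that they came from separate animals, so a p-value measures only the spread between these arrays.

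Cells sense oxygen mainly through the hypoxia-inducible factors, dimers of an oxygen-labile subunit (Hif1a or Epas1) and a stable partner (Arnt). In normal oxygen the prolyl hydroxylases of the Egln family mark the labile subunit for destruction by Vhl. In low oxygen the dimer binds DNA and drives genes of glycolysis, glucose uptake, blood vessel growth and iron handling. In white adipose tissue the same pathway is known from obesity, where it is tied to leptin and inflammation, and intermittent hypoxia is also known to act on lipid synthesis, lipolysis and insulin sensitivity.

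The deposited values are intensities on a linear scale, compared here as log2 levels with values under 97.7 set to that value, so that a log2 level of 6.61 is the floor and means only that the signal was at or below it. The median intensity of the 8 arrays ran from 264.7 to 293.2. The 3' to 5' ratio of the Actb control probe sets, a sign of RNA length, was 1.70 and 1.37 on the ConHyp arrays and between 0.756 and 1.27 on the others. Adipocyte genes were abundant on every array: Adipoq, which encodes adiponectin, lay between log2 levels of 13.70 and 15.52, and Fabp4, the adipocyte fatty acid carrier, between 12.33 and 14.47. Other tissue was present as well. The summed intensity of the 26 skeletal muscle genes tested ran from 103455 to 211956 on the hypoxia arrays and from 24242 to 381847 on the room air arrays. Brown adipocyte genes stood far above the other arrays on both Con arrays numbered 1.

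No gene passed the test between hypoxia and room air. Of 7453 probe sets tested with limma, 0 (0.0%) had a Benjamini-Hochberg adjusted p under 0.05, the lowest adjusted p being 0.9998. At an unadjusted p under 0.05 there were 102 probe sets (1.37%), 64 higher (0.859%) and 38 lower (0.51%) under hypoxia, where 373 would lie by the nominal level alone. Hypoxia levels were above room air levels at any size for 53.6% of probe sets and below them for 46.4%, with a median log2 difference of 0.02. A difference of 2-fold or more separated 96 probe sets (1.29%), 42 of them higher (0.564%) and 54 lower (0.725%). All 4 hypoxia arrays lay above all 4 room air arrays for 20 probe sets (0.268%), and below them for 13 (0.174%). The 95% interval of the average difference stayed within 2-fold either way for 4602 probe sets (61.7%). Like the p-values, these intervals measure only the spread between these arrays, and they do not bound the difference within Con or within Glucose. The median standard error was 0.31.

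Hypoxia was the smallest of the sources of spread. Con against Glucose held 40.9% of the sum of squares over the 8 arrays, hypoxia 5.76%, the hypoxia effect that differed between Con and Glucose 9.32%, and the spread between arrays of a group 44.0%, which is 11.0% per degree of freedom. The share of hypoxia, which has 1 degree of freedom, lay below that. Arrays of opposite exposure within Con or within Glucose correlated at 0.852 to 0.923 across probe sets, while arrays sharing a group correlated at 0.843 to 0.896. Pairing arrays of equal number left 0 probe sets past the adjusted threshold and 168 (2.25%) at an unadjusted p under 0.05. The labels do not state such a pairing.

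**Figure D1:**
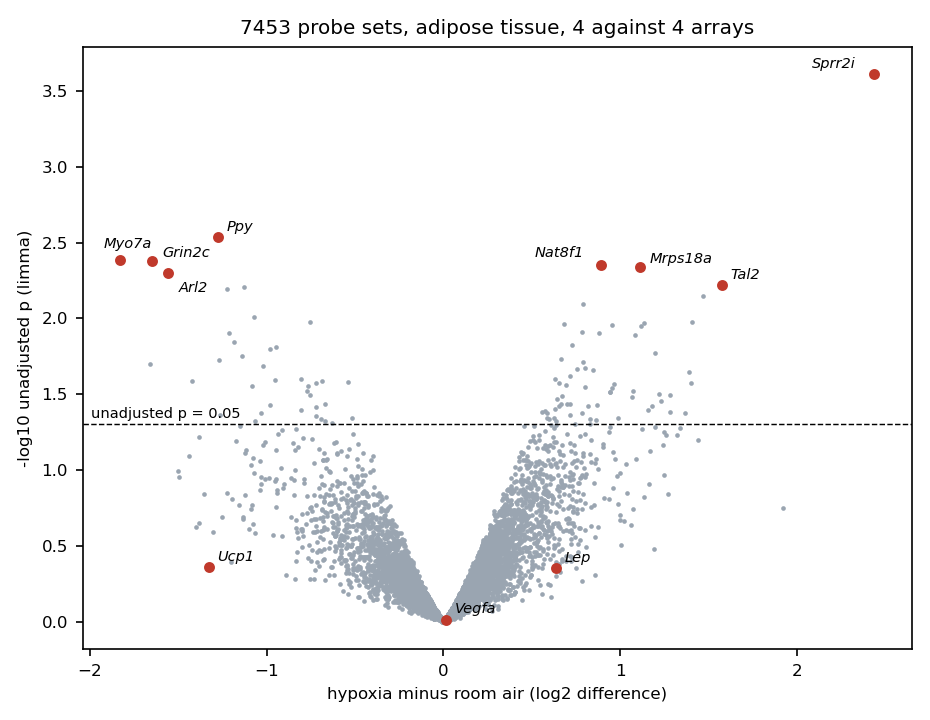
Log2 difference (hypoxia minus room air, x axis) against -log10 of the unadjusted limma p (y axis) for the 7453 probe sets, with 11 genes named in the text in red. The dashed line marks an unadjusted p of 0.05. Sprr2i lies alone at 2.44 on the right, and Vegfa sits near 0.

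Where the 4 levels of a side are listed below, they stand in the order Con number 1, Con number 2, Glucose number 1 and Glucose number 2, and hypoxia comes before room air. Since no probe set passed, the 12 genes with the smallest unadjusted p in each direction are described, and none of them is a called change. Sprr2i, which encodes a small proline-rich protein of the cornified envelope of stratified epithelium, came first. Its log2 levels were 9.22 and 8.90 on the ConHyp arrays and 10.47 and 9.28 on the GlucoseHyp arrays. In room air it was at the floor of 6.61 on 3 arrays and at 8.29 on GlucoseNonHyp number 2. The sides did not overlap, and the lowest hypoxia array was 8.90. The difference was 2.44 ± 0.41 (SE, 4 against 4 arrays; 95% interval 1.51 to 3.36), or 5.41-fold, with an unadjusted limma p of 0.000246 and an adjusted p of 0.9998. It was 2.45 within Con and 2.42 within Glucose. Because room air signals sit at the floor, the size depends on where the floor is set, from 1.66 with a floor of 200 to 3.81 with a floor of 20. The title codes s2 and s4, which the labels do not explain, gave 1.64 among the s2 arrays and 3.23 among the s4 arrays. The platform's suffix marks this probe set as one that can match several members of the gene family, so the signal cannot be assigned to Sprr2i alone.

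Epidermal marker genes were examined beside it. Of 21 such genes with a probe set, 11 were tested, Sprr2i among them, 8 higher and 3 lower, with a median difference of 0.14, and 6 were at the floor on all arrays. Krt10, a keratin of differentiated epidermis, was lower under hypoxia by 1.12 ± 0.55, with levels of 6.70, 6.89, 6.86 and 7.22 against 6.93, 6.61, 10.23 and 8.37. The summed intensity of the 11 tested ran from 9773 to 22199 under hypoxia and from 9627 to 16545 in room air. The part of epidermis in the Sprr2i difference was not tested.

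Among the other genes higher under hypoxia, Nat8f1, a member of the N-acetyltransferase 8 family, did not overlap. Its hypoxia levels were 10.05, 9.68, 9.90 and 9.83, and its room air levels 9.09, 9.13, 9.15 and 8.53. The lowest hypoxia array, at 9.68, lay above the highest room air array, at 9.15, and the difference was 0.89 ± 0.23 (unadjusted p 0.00447, limma adjusted p 0.9998). Ercc1, a subunit of a DNA repair endonuclease, read 9.75, 9.14, 9.74 and 9.41 under hypoxia and 8.80, 8.16, 8.44 and 9.12 in room air. Its sides touched without overlapping, at 9.14 against 9.12, with a difference of 0.88 ± 0.28.

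The remaining 9 genes of that direction overlapped between the sides. Tal2, a transcription factor, was at the floor on all room air arrays and on ConHyp number 2, and at 8.45, 8.70 and 8.98 on the other hypoxia arrays. Tshr, the thyrotropin receptor, which adipocytes express, averaged 1.13 ± 0.35 higher, from levels of 9.80, 9.88, 10.75 and 10.54 under hypoxia and 8.92, 7.55, 10.15 and 9.82 in room air. It was higher in all 4 pairs of arrays of equal number, as were 355 probe sets (4.76%). Ncoa1, a coactivator of nuclear receptors, differed by 1.08 ± 0.35. Adgre5, an adhesion receptor of leukocytes, differed by 1.11 ± 0.35 with 3 room air arrays at the floor. Its other probe set was at the floor on all arrays. St3gal1, a sialyltransferase, differed by 0.68 ± 0.21, Pwp1, a nucleolar protein, by 0.79 ± 0.25, and Traf3ip2, an adaptor of interleukin 17 receptors, by 0.95 ± 0.30 with 3 room air arrays at the floor. Mrps18a, a mitochondrial ribosomal protein, differed by 1.11 ± 0.29 on its brightest probe set, but its other probe sets gave 0.08, -0.45 and 0.09.

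On the lower side, Grin2c, a subunit of the NMDA type of glutamate receptor, did not overlap. It was at the floor on both hypoxia arrays numbered 1 and at 7.19 and 6.93 on those numbered 2, against 7.81, 9.04, 7.68 and 9.39 in room air, a difference of -1.65 ± 0.42. Cryl1, an enzyme of sugar acid metabolism, read 7.53, 8.42, 7.72 and 7.03 under hypoxia and 8.61, 8.71, 8.91 and 8.97 in room air. Its difference was -1.13 ± 0.31, and its other probe set gave -0.31. Cyp1a1, a cytochrome P450 controlled by the aryl hydrocarbon receptor, read 7.19, 8.54, 6.61 and 8.43 against 8.95, 9.30, 8.67 and 8.93, a difference of -1.27 ± 0.44. Its other probe set, too dim to be tested, lay 0.30 higher under hypoxia.

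Atg13, which starts autophagy with the Ulk kinases, ranged from 8.66 to 9.25 under hypoxia and from 9.43 to 9.92 in room air without overlap, a difference of -0.75 ± 0.23. Cbr2, a carbonyl reductase, was at the floor on both GlucoseHyp arrays and at 8.38 and 7.76 on the ConHyp arrays, against 8.43, 8.66, 8.66 and 8.51. Its difference averaged -1.22 ± 0.34, but was -0.47 within Con and -1.97 within Glucose. Rnf208, a RING finger protein (-0.95 ± 0.31), and Rabggta, a subunit of the enzyme that prenylates Rab proteins (-0.98 ± 0.33), also had sides that did not overlap.

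Ppy, Myo7a, Arl2, Gata2 and Abcb8 completed the 12 and overlapped. Ppy, which encodes pancreatic polypeptide, differed by -1.28 ± 0.31, with a much smaller value of -0.19 on its other probe set. Myo7a, an unconventional myosin, differed by -1.83 ± 0.47, made of -0.86 within Con and -2.79 within Glucose, with both GlucoseHyp arrays at the floor. Arl2, a small GTPase of microtubule assembly, differed by -1.56 ± 0.42, with GlucoseHyp number 2 at the floor. Abcb8, a mitochondrial transporter, differed by -1.19 ± 0.39, with both GlucoseHyp arrays and GlucoseNonHyp number 1 at the floor. Gata2, a transcription factor that holds back adipocyte differentiation and that mast cells also express, was at the floor on both GlucoseHyp arrays, at 7.76 and 8.46 on the ConHyp arrays, and at 8.34, 8.51, 8.64 and 8.79 in room air. Its difference was -1.21 ± 0.38, made of -0.31 within Con and -2.11 within Glucose. Of 5 mast cell genes tested, Gata2 among them, 1 was higher and 4 lower with a median of -0.48, and none was at the floor on all arrays. That median was -0.80 without ConHyp number 2 and -0.19 without GlucoseNonHyp number 1. Their summed intensity ran from 1091 to 5321 under hypoxia and from 1716 to 4247 in room air, and the part of mast cells in the Gata2 difference was not tested.

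**Figure D2:**
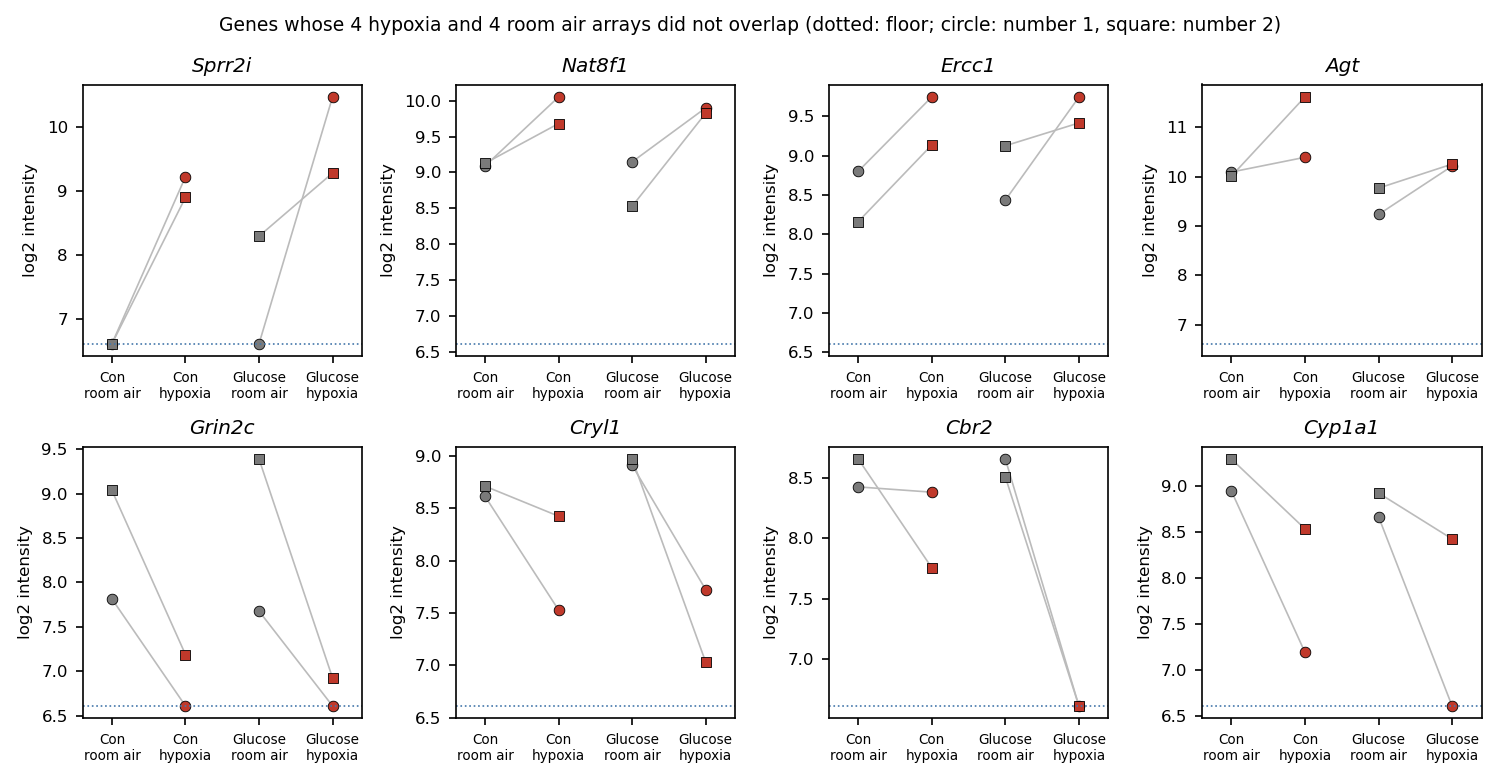
Log2 intensity (y axis) of 8 genes on each of the 8 arrays, by group (x axis); grey is room air, red is hypoxia, circles are number 1, squares number 2, and lines join arrays of equal number. In each panel all hypoxia points lie on the same side of all room air points, and for Sprr2i, Grin2c, Cbr2 and Cyp1a1 some points sit on the dotted floor at 6.61.

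Genes of the oxygen-sensing pathway showed no common direction. Of 28 target genes of the hypoxia-inducible factors that were tested, 14 were higher and 14 lower, with a median difference of 0.01 beside 0.02 over all probe sets. Leaving out 1 array at a time moved that median between -0.08 and 0.12. None passed the limma test, and Angpt2 was the only member at an unadjusted p under 0.05 (the background is 1.37%). Among 9 regulators of the pathway 3 were higher and 6 lower, with a median of -0.18, and none reached that level. In a bulk sample a lower level cannot be told apart between fewer cells of a type and less RNA per cell.

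Stretches of the promoters of Slc2a1 and Pfkfb3, 2 targets described here, are printed from RefSeq, each cut around the letters in capitals. Capitals mark the core of the hypoxia response element, ACGTG, or its reverse complement CACGT. The core was searched on both strands and is also contained in CACGTG, the E-box bound by other factors. All coordinates are those of GRCm38.p6. The Slc2a1 stretch lies at chr4:119108669-119108744 on the plus strand and the Pfkfb3 stretches, from a pair of start sites, at chr2:11553945-11554029 and chr2:11502098-11502183 on the minus strand, all before the start site.
Slc2a1: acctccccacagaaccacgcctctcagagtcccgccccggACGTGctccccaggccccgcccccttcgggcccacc
Pfkfb3, upstream start: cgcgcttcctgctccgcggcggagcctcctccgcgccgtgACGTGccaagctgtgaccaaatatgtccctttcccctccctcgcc
Pfkfb3, downstream start: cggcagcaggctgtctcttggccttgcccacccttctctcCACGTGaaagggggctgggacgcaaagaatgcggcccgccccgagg
The core occurs in 18 of 30 promoters of 22 matched target genes (60%) and in 6447 of 32851 promoters of the whole table (19.6%), in windows of 250 bases before to 50 after the start. By gene, 15 of the 22 tested targets with a promoter in the table hold it, of which 6 were higher under hypoxia (median -0.07), and 7 do not, of which 6 were higher (median 0.19). A match is a description of the letters and not of binding.

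The subunits of the factors overlapped between the sides. Hif1a, the oxygen-labile subunit, read 11.70, 11.99, 13.04 and 12.69 under hypoxia and 11.61, 12.16, 12.83 and 12.61 in room air. The sides overlapped throughout, and the difference was 0.05 ± 0.23 (95% interval -0.48 to 0.58). Epas1, the second labile subunit, differed by 0.30 ± 0.23, and Arnt, the stable partner, by -0.47 ± 0.42 on its brightest probe set and -0.0040 on the other. Cited2, which competes with the factors for their coactivators and is itself a target, read 9.97, 10.94, 10.86 and 10.77 against 10.64, 11.57, 12.05 and 11.00. It was lower in all 4 pairs, as were 209 probe sets (2.8%), with a difference of -0.68 ± 0.35 and an interval of -1.48 to 0.12.

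Among the targets, Vegfa, the main growth factor of blood vessels, read 10.44, 10.92, 9.86 and 8.82 under hypoxia and 11.12, 9.67, 9.74 and 9.45 in room air. High and low arrays occurred on both sides, and the difference was 0.02 ± 0.38. Its interval of -0.86 to 0.89 lay within 2-fold either way, and average changes inside that interval are not excluded. Angpt2, an angiopoietin that loosens vessel walls, read 7.89, 8.39, 8.82 and 8.18 against 7.33, 6.77, 8.61 and 7.25. It was higher in all 4 pairs, by 0.83 ± 0.36 on average, with an unadjusted p of 0.046. Of 18 genes of angiogenesis and endothelium 13 were higher and 5 lower, with a median of 0.06.

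Slc2a1, the glucose transporter whose promoter is shown above, read 9.41, 6.61, 7.95 and 8.85 under hypoxia and 8.43, 7.91, 6.61 and 7.60 in room air. An array of each side was at the floor, and the difference of 0.57 ± 0.62 was -0.15 within Con and 1.29 within Glucose. Pfkfb3, which makes the activator of phosphofructokinase, read 9.96, 10.36, 10.71 and 10.40 against 10.76, 11.08, 10.80 and 10.57. Its hypoxia arrays all lay at or below 10.71 and its room air arrays at or above 10.57, with a difference of -0.44 ± 0.25.

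Other targets serve iron, heme and acid balance. Hmox1, the heme oxygenase, differed by -0.33 ± 0.21 and Tfrc, the transferrin receptor, by -0.07 ± 0.22. Car4, a membrane-bound carbonic anhydrase, read 8.01, 10.12, 8.65 and 9.70 against 9.23, 9.77, 10.20 and 10.73, a difference of -0.86 ± 0.49 on its brightest probe set and -0.03 on the other. Bhlhe40, a repressor of the clock and of lipid genes, lay at -1.47 within Con and 0.84 within Glucose, around an average of -0.32 ± 0.49.

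Glycolysis enzymes were mostly lower, 12 of 15, with a median of -0.23, which was -0.55 within Con and 0.16 within Glucose. Without ConHyp number 2 the median was 0.03. Pgam2, the muscle form of phosphoglycerate mutase, differed by -1.30 ± 1.07, with -3.00 within Con and 0.40 within Glucose. Skeletal muscle genes, of which Pgam2 is one, had the same signs in the strata. Of 26 tested, 11 were higher and 15 lower, with a median of -1.33 within Con and 0.94 within Glucose, and 1 was at the floor on all arrays. Casq1, the calcium-binding protein of muscle, read 10.46 and 10.56 on the ConHyp arrays and 11.99 and 14.22 on the ConNonHyp arrays. The part of muscle in the glycolysis values was not tested. Slc2a4, the insulin-responsive glucose transporter of fat and muscle, differed by -0.14 ± 0.33, and Pdk4, which shuts pyruvate out of oxidation, by -0.98 ± 0.40. Pdk4 levels were 13.74, 11.83, 11.30 and 11.95 against 13.98, 13.74, 12.58 and 12.46, lower in all 4 pairs, with an unadjusted p of 0.0374.

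Cholesterol synthesis genes leaned higher under hypoxia without any passing the test. Of 13 tested, 12 were higher and 1 lower (over all probe sets 53.6% were higher), with a median of 0.21. The count stayed between 10 and 13 when any 1 array was left out. Within Con 8 of 13 were higher (median 0.11) and within Glucose 12 of 13 (median 0.26). Msmo1, which removes methyl groups from lanosterol products, read 6.79, 7.37, 9.73 and 9.34 against 6.61, 6.61, 8.43 and 9.01. It was higher within each stratum without overlap, by 0.64 ± 0.25 (unadjusted p 0.034, limma adjusted p 0.9998), and both ConNonHyp arrays were at the floor. Sqle, squalene epoxidase, differed by 0.73 ± 0.41, Idi1, an isomerase of the isoprenoid branch, by 0.34 ± 0.25, and Hmgcs1, which opens the pathway, by 0.17 ± 0.27.

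Genes of fatty acid and triglyceride synthesis were divided, with 9 higher and 8 lower of 17 and a median of 0.02. Within Con the median was -0.30 and within Glucose 0.36. Fasn, the fatty acid synthase, read 14.83, 13.89, 13.37 and 13.94 against 14.01, 14.33, 12.85 and 12.90, a difference of 0.49 ± 0.29 (95% interval -0.18 to 1.15). Thrsp, a regulator of lipogenesis, differed by 0.78 ± 0.44, from 14.51, 13.46, 12.88 and 13.22 against 13.78, 13.41, 10.96 and 12.77, higher in all 4 pairs. Scd2, a stearoyl-CoA desaturase, differed by 0.56 ± 0.41, with 1.31 within Glucose and -0.18 within Con. Its other probe set gave 0.66 ± 0.23 with an unadjusted p of 0.0186. Scd1 differed by 0.13 ± 0.43 and Srebf1, the transcription factor of lipogenesis, by 0.09 ± 0.30.

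Lipid uptake and release were close to 0 in average difference. Lpl, the lipoprotein lipase, differed by 0.21 ± 0.41, and Angptl4, its inhibitor and a known target of the hypoxia-inducible factors, by -0.03 ± 0.31, with 0.50 within Con and -0.55 within Glucose. Of 15 genes of lipolysis and fatty acid handling 9 were higher, with a median of 0.06. Pparg, the main regulator of adipocyte differentiation, differed by 0.10 ± 0.33.

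Adipokine and adipocyte identity genes were higher in 12 of 14 cases, with a median of 0.30, which was 0.58 within Con and -0.03 within Glucose. Leaving out 1 array at a time gave 8 to 13 higher, with a median of 0.13 without GlucoseNonHyp number 1 and 0.47 without GlucoseNonHyp number 2. Agt, which encodes angiotensinogen, was the member whose sides did not overlap, with 10.39, 11.62, 10.22 and 10.26 under hypoxia and 10.10, 10.01, 9.23 and 9.77 in room air. The difference was 0.84 ± 0.30, the unadjusted p 0.0218 and the adjusted p 0.9998. Nnat, an imprinted gene of growing adipocytes, read 14.19 and 13.83 on the ConHyp arrays and 12.42 and 11.89 on the ConNonHyp arrays. Within Glucose it read 12.85 and 13.18 under hypoxia and 13.17 and 13.53 in room air. Its difference was 1.85 within Con and -0.33 within Glucose, with an unadjusted interaction p of 0.003 (limma adjusted p 0.9991). Mest, another imprinted gene tied to fat cell growth, differed by 1.62 within Con, at levels of 7.73 to 9.61, and by -0.05 within Glucose, at levels of 12.49 to 13.40. Npr3, the clearance receptor of natriuretic peptides, differed by 0.63 ± 0.30.

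Lep, which encodes leptin, read 13.31, 13.33, 11.63 and 13.23 under hypoxia and 11.58, 12.85, 10.31 and 14.21 in room air. Both the lowest and the highest array were room air arrays, and the difference was 0.64 ± 0.79 (95% interval -1.17 to 2.45). Its other probe set gave 0.49 ± 0.47. Retn, which encodes resistin, differed by 0.33 ± 0.34 and Adipoq by 0.09 ± 0.37.

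**Figure D3:**
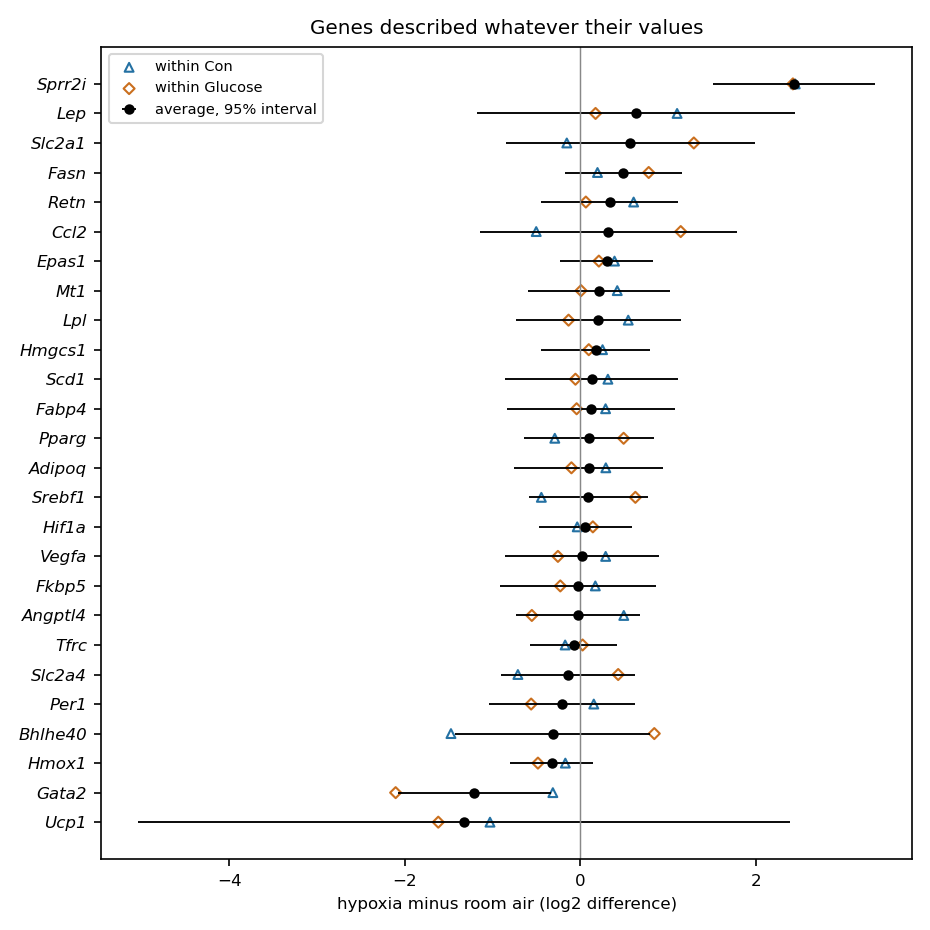
Hypoxia minus room air (log2 difference, x axis) for the 26 measured genes of the fixed list (y axis). Filled circles are the averages with 95% intervals of the limma fit, triangles the difference within Con and diamonds within Glucose. Intervals of 24 genes include 0, those of Sprr2i and Gata2 do not, and for 16 genes Con and Glucose lie on opposite sides of 0. Sprr2i and Gata2 are also among the 12 genes of smallest unadjusted p in their direction. The list was chosen with earlier results of these data known, so their intervals are not a separate result.

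All 7 brown adipocyte genes tested lay lower under hypoxia (over all probe sets 46.4% were lower), with a median of -0.39, a value that rests on the ConHyp arrays. Within Con 0 of 7 were higher (median -0.62) and within Glucose 2 of 7 (median -0.0051). Ucp1, the uncoupling protein that makes heat, read 13.38 on ConHyp number 1 and was at the floor on the other 3 hypoxia arrays, against 14.31, 7.75, 8.04 and 8.42 in room air. It was lower in all 4 pairs. The difference was -1.32 ± 1.63 (unadjusted p 0.438), while pairing arrays of equal number gave an unadjusted p of 0.000961 and a limma adjusted p of 0.9997. The other Ucp1 probe set gave -1.20, with a paired unadjusted p of 0.0087. Among the s2 arrays the Ucp1 difference was -4.75 and among the s4 arrays 2.10, since the arrays with high values carry different codes. Cidea, a lipid droplet protein of brown fat, read 15.32 and 10.35 on the ConHyp arrays, 14.26 and 11.86 on the ConNonHyp arrays, and 6.61 to 7.65 on the Glucose arrays. Ppara, a regulator of fatty acid oxidation, differed by -0.39 ± 0.54. The median of the list ran from -1.37 without ConHyp number 1 to 0.58 without ConHyp number 2. The summed intensity ran from 1913 to 93842 under hypoxia and from 1979 to 71747 in room air.

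Mitochondrial genes followed the same arrays. Of 55 genes of the respiratory chain 25 were higher and 30 lower, with a median of -0.02, and the number higher moved between 4 without ConHyp number 1 and 54 without ConHyp number 2. Of 37 genes of the citrate cycle and fatty acid oxidation 12 were higher and 25 lower, with a median of -0.05, and this median ran from -0.31 to 0.19 when those arrays were left out. The part of brown fat in these values was not tested.

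**Figure D4:**
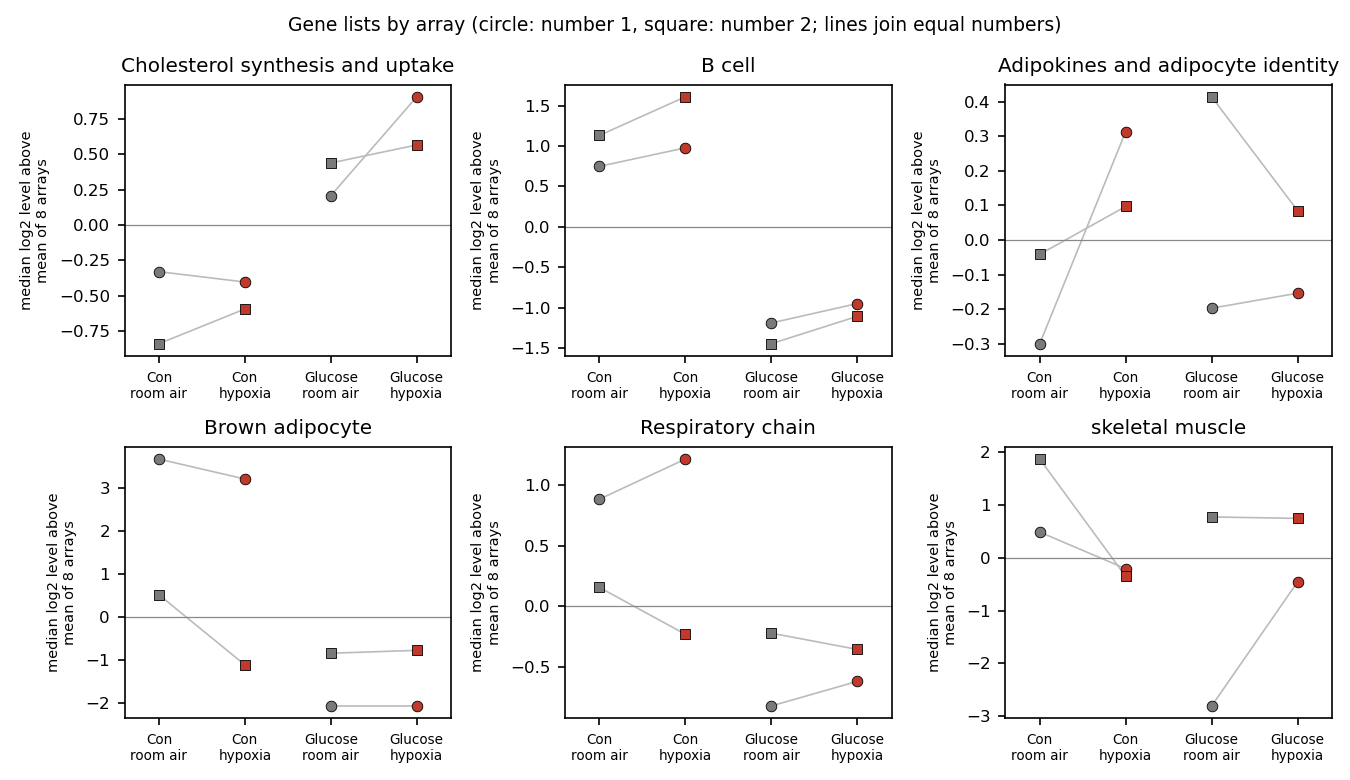
Median log2 level of 6 gene lists above the mean of the 8 arrays (y axis) by group (x axis); grey is room air, red is hypoxia, circles are number 1 and squares number 2, and lines join arrays of equal number. Brown adipocyte and respiratory chain genes stand highest on both Con arrays numbered 1, and the B cell list differs far more between Con and Glucose than between hypoxia and room air.

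Stress, hormone and clock genes were mixed. Of 18 glucocorticoid-responsive genes 5 were higher and 13 lower, with a median of -0.18. Tsc22d3, which encodes the glucocorticoid-induced leucine zipper, was 0.83 ± 0.36 higher, opposite to Pdk4, and Fkbp5, a co-chaperone of the receptor, differed by -0.03 ± 0.39. Without ConHyp number 1 the list median was 0.01. Clock genes were higher in 7 and lower in 9 of 16 cases. Dbp, an output gene of the clock, read 6.96, 9.06, 7.76 and 8.10 against 7.18, 9.74, 8.95 and 9.33, lower in all 4 pairs with a difference of -0.83 ± 0.62, and Per1 differed by -0.20 ± 0.36. Of 33 antioxidant genes 15 were higher, with a median of -0.03. Gpx2, a glutathione peroxidase of epithelia, read 9.96, 9.35, 10.34 and 10.14 against 9.29, 8.43, 9.67 and 6.95, a difference of 1.36 ± 0.57 that was 0.71 without GlucoseNonHyp number 2, the lowest array. Mt1, a metallothionein, differed by 0.21 ± 0.35.

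Immune genes did not move together. Of 10 B cell genes 8 were higher (median 0.39), and 5 were higher in all 4 pairs (the background is 4.76%). Within Con 10 of 10 were higher (median 0.39) and within Glucose 6 of 10 (median 0.41). Leaving out any 1 array kept the count between 7 and 9 and the median of these genes between 0.27 and 0.54, or 0.67 without ConHyp number 1 when the filter was applied anew. Ms4a1, which encodes CD20, read 12.09, 11.65, 9.62 and 10.46 under hypoxia and 11.48, 11.63, 8.82 and 8.70 in room air, a difference of 0.80 ± 0.30 on its brightest probe set and 0.12 on the other. Igkv6-23, an immunoglobulin light chain segment, read 14.46, 14.16, 9.89 and 8.74 against 13.58, 13.87, 7.57 and 6.61, a difference of 1.41 ± 0.43. Segments of this family are near-identical, so its signal cannot be assigned to 1 gene. Ighm, the heavy chain of IgM, differed by 0.60 ± 0.32 on its brightest probe set, and by -0.10, -0.15, -0.30, 0.45 and 0.54 on the other 5 tested. No B cell gene was at the floor on all arrays, and the summed intensity ran from 14732 to 49404 under hypoxia and from 7664 to 39894 in room air.

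Macrophage genes went the other way, 13 of 15 lower, with a median of -0.18. Fcgr1, a high-affinity receptor for IgG, was an exception. It read 10.43, 10.66, 10.46 and 10.50 under hypoxia and 10.29, 10.34, 10.22 and 9.85 in room air, without overlap, and differed by 0.34 ± 0.21. Leaving out GlucoseNonHyp number 2 brought the macrophage median to 0.01. Of 22 inflammation genes 15 were higher, with a median of 0.06. Ccl2, the main monocyte chemokine, differed by 0.32 ± 0.64, with -0.50 within Con and 1.14 within Glucose. Il1rn, the interleukin 1 receptor antagonist, was lower by 0.77 ± 0.29, but 3 of the 4 Con arrays were at the floor. Alas2, the heme synthesis enzyme of red cells, read 10.12, 10.69, 10.54 and 10.64 against 9.45, 9.68, 10.53 and 9.52, a difference of 0.70 ± 0.28.

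Of 19 genes of insulin signalling and glucose uptake 11 were higher, with a median of 0.11, and of 29 genes of heat shock and the unfolded protein response 18 were higher, with a median of 0.06. Of 24 immediate early genes 11 were higher (median -0.07), of 36 extracellular matrix genes 13 (median -0.08) and of 26 interferon and antigen presentation genes 14 (median 0.01). Adipogenic transcription factors, 13 in number and including Gata2, had 7 higher and a median of 0.04. Fibroblast markers were higher in 6 of 9 cases (median 0.07), T cell markers in 3 of 7 (median -0.02) and nerve markers in 2 of 6 (median -0.14). Blood and platelet markers were higher in 3 of 3 cases (median 0.25), lymph node markers in 3 of 3 (median 0.23) and mammary markers in 3 of 5 (median 0.05). None of these genes passed the limma test.

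The average over Con and Glucose often combined differences of opposite sign, which spread between arrays alone can also give. The differences within Con and within Glucose, which share no array, had opposite signs for 4376 probe sets (58.7%) and correlated at -0.24 across probe sets, a description over genes that are not independent. Sides separated without overlap in the same direction within both strata for 97 probe sets higher (1.3%) and 41 lower (0.55%). Within Con alone 2.92% of probe sets had an unadjusted p under 0.05, and within Glucose alone 2.13%. The sides separated in opposite directions for 223 (2.99%, higher in Con and lower in Glucose) and 141 (1.89%, the reverse). The limma interaction term called 0 probe sets (0.0%), with 246 (3.3%) at an unadjusted p under 0.05, where 373 would lie by the nominal level alone. That count was 421 when arrays of equal number were paired and 182 to 444 when 1 array was left out, again with 0 called. It thus lay below or above the nominal level depending on the fit. A difference between the strata was thus not detected for any single gene. Bhlhe40 (unadjusted interaction p 0.00598), Gata2 (0.00747) and Nnat (0.003) were among those 246. The labels do not say whether Con and Glucose differ in strain, so the hypoxia effect of a strain cannot be told apart from that of a treatment.

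**Figure D5:**
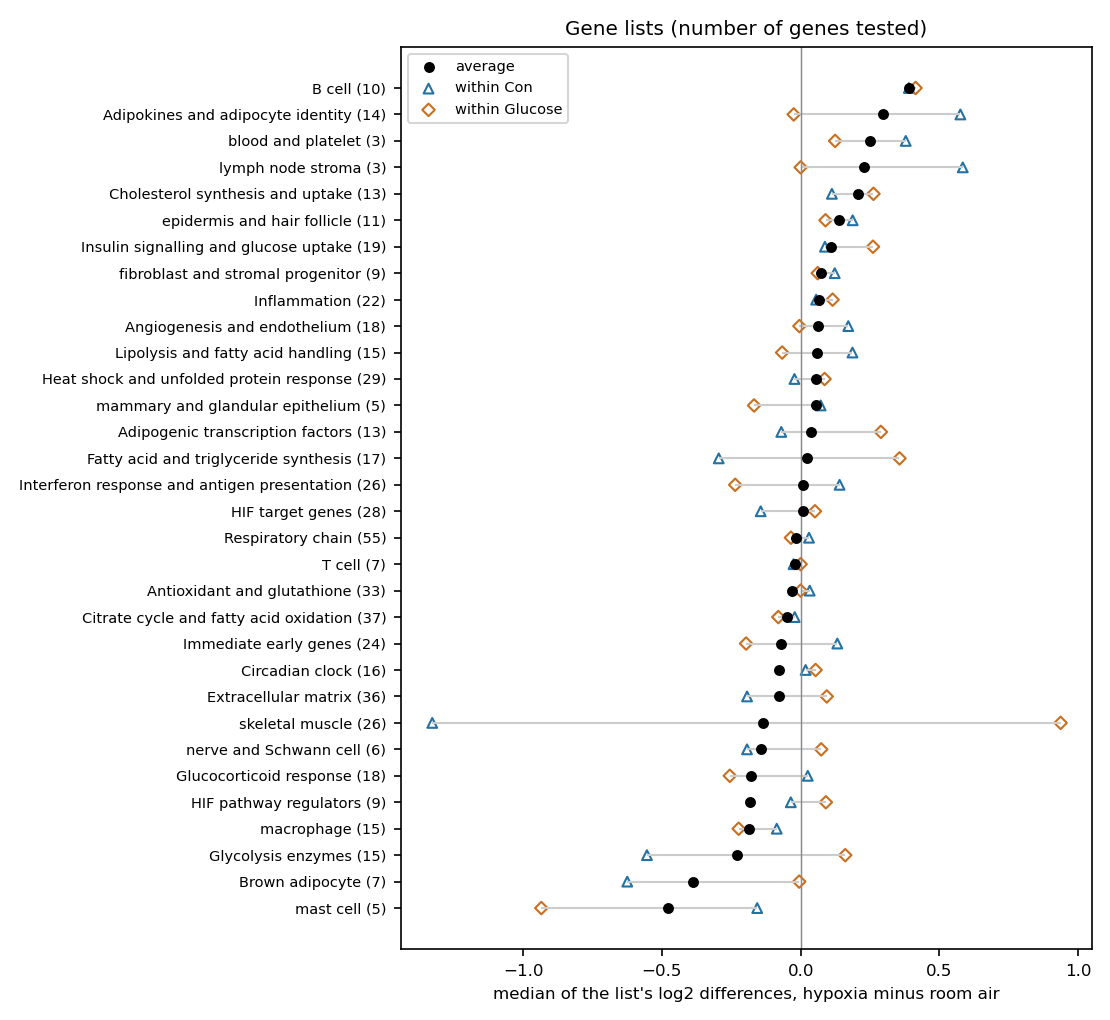
Median of the log2 differences (hypoxia minus room air, x axis) of each gene list (y axis, number of genes tested in brackets). Black circles are the average, triangles the value within Con and diamonds within Glucose. Skeletal muscle genes lie at -1.33 within Con and 0.94 within Glucose, whereas the B cell and cholesterol lists are among several that keep the same sign in both.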

How the data were processed

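The deposited table holds the authors' linear intensity, with a single value for each of 12488 probe sets on each array. The summary method and scaling are not given in the sources used here. Values under 97.7, the 20th percentile of all positive values over the 20 arrays, were set to it before log2, since 17.5% to 21.2% of values per array lay at or below 0. The 66 platform controls were left out, and 7453 probe sets with a mean above the 40th percentile entered limma (version 3.58.1, R 4.3.3; lmFit, eBayes, two-sided, Benjamini-Hochberg over all tested), with Con or Glucose as a block and 5 residual degrees of freedom. An interaction fit had 4 group means. GEO's platform annotation gave 1 gene symbol to 10833 probe sets, 396 had several and 1193 none; a gene is represented by its brightest probe set. Arrays of equal number deviated from their group means together (r = 0.18 in Con and 0.41 in Glucose across probe sets). They were therefore treated as pairs in an alternative fit, though the labels do not state a pairing. Arrays of equal number carry the same title code, s2 or s4, in Glucose and different codes in Con. The script was tested on simulated data. Named were the 12 genes of smallest unadjusted p per direction, up to 4 per list by the same measure and a fixed list, of which 26 genes are reported here. Members and lists were chosen with earlier results of these data known. The number of arrays limits the precision.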

Additional observations from a re-analysis of the deposited data

Results flagged for a closer look

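A single array stood apart from the other 3 of its side in 13 of 222 sets of 4 arrays examined. Chance gives about 1 in 20 where the 4 arrays are alike, but each side here mixes Con and Glucose arrays. Nor does that rate apply to the 4 sets below whose other 3 arrays were tied at the floor. Lep was low on GlucoseHyp number 1, at 11.63 against 13.23 to 13.33. Ucp1 was high on ConHyp number 1, at 13.38 with the others at the floor, and on ConNonHyp number 1, at 14.31 against 7.75 to 8.42. In room air Sprr2i read 8.29 on GlucoseNonHyp number 2, Traf3ip2 7.77 on ConNonHyp number 2 and Adgre5 7.62 on ConNonHyp number 1, each with the other 3 arrays at the floor. Nat8f1 was low on GlucoseNonHyp number 2, at 8.53 against 9.09 to 9.15. Agt was high on ConHyp number 2, at 11.62 against 10.22 to 10.39.

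In median log2 level above the mean of the 8 arrays, HIF targets stood at -0.31 on ConHyp number 1 against 0.08 to 0.12. Citrate cycle and fatty acid oxidation genes stood at 1.03 on the same array against -0.40 to -0.22. On ConNonHyp number 1 glucocorticoid-responsive genes stood at -0.34 against 0.14 to 0.23. On GlucoseNonHyp number 1 inflammation genes stood at -0.38 against 0.10 to 0.18, and macrophage genes at -0.69 against 0.16 to 0.31.

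In the same median level per array, a pair of lists separated in opposite directions. Every Con hypoxia array lay below the Con room air arrays and every Glucose hypoxia array above the Glucose room air arrays. Among single probe sets this held for 141 (1.89%). The hypoxia difference in Glucose exceeded that in Con by 0.64 for fatty acid and triglyceride synthesis (0.31 against -0.34) and by 0.27 for adipogenic transcription factors (0.15 against -0.12). These are differences of group means of the level per array. The stratum medians given earlier for fatty acid and triglyceride synthesis, -0.30 and 0.36, are medians of gene differences and so another measure. These differences between the strata were not tested.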

How the results depend on the processing

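Under 27 alternatives of the hypoxia comparison and 18 of the interaction (other floors, offset, normalizations, filters, blocks including the replicate block, moderation, weights and each array left out), limma called 0 probe sets, except without a filter on low values. There 1 was called for hypoxia, Strada, and 3 for the interaction, Gli3, Kcnj9 and Bcar1, each with a side or group at the floor on all arrays and so without spread. Counts of separated probe sets were recomputed as a choice made after seeing the data. Those higher changed to 13 with quantile normalization. Those lower changed to 20 with median centring, 21 without a filter and 6 with a filter at the 60th percentile. Without a filter the total was 12422 probe sets, and at the 60th percentile it was fewer than 7453. The counts with other filters are therefore not out of the same total as the main ones. Leaving out 1 array gave 97 to 186 probe sets at an unadjusted p under 0.05 for hypoxia and 182 to 444 for the interaction. With the replicate block 0 were called, and 168 reached an unadjusted p under 0.05, over 1.5 times the 102 without it. For the interaction the block gave 0 calls. It gave 421 at an unadjusted p under 0.05, above the nominal 373, beside 246 without it.

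With median centring the difference changed sign for Vegfa (-0.018). Among the 4 arrays coded s2 the difference changed sign for Vegfa (-0.41), Slc2a1 (-0.29), Adipoq (-0.23), Pparg (-0.40), Scd1 (-0.20), Hmgcs1 (-0.23), Lpl (-0.23), Fabp4 (-0.15), Ccl2 (-0.90), Tfrc (0.20), Per1 (0.54), Fkbp5 (0.66), Mt1 (-0.20), Cited2 (0.036), Idi1 (-0.13), Dbp (0.32). Within the Glucose arrays the difference changed sign for Vegfa (-0.26), Slc2a4 (0.43), Adipoq (-0.10), Scd1 (-0.056), Lpl (-0.13), Fabp4 (-0.042), Tfrc (0.026), Bhlhe40 (0.84), Mest (-0.050), Nnat (-0.33), Ppara (0.24), Pgam2 (0.40), Casq1 (0.29). With array weights the difference changed sign for Vegfa (-0.14), Fkbp5 (0.14). Within the Con arrays the difference changed sign for Slc2a1 (-0.15), Hif1a (-0.036), Pparg (-0.29), Srebf1 (-0.44), Angptl4 (0.50), Ccl2 (-0.50), Per1 (0.15), Fkbp5 (0.17), Scd2 (-0.18). Among the 4 arrays coded s4 the difference changed sign for Slc2a4 (0.18), Hif1a (-0.12), Srebf1 (-0.022), Angptl4 (0.030), Ucp1 (2.10), Cidea (1.30), Ppara (0.22). With both Con arrays numbered 1 left out, chosen after seeing the data, the difference changed sign for Slc2a4 (0.047), Adipoq (-0.21), Scd1 (-0.27), Lpl (-0.17), Fabp4 (-0.28), Bhlhe40 (0.075). With quantile normalization the difference changed sign for Adipoq (-0.0043). Leaving out 1 array at a time gave a range across 0 for Vegfa (-0.33 to 0.28), Slc2a4 (-0.45 to 0.043), Hif1a (-0.039 to 0.18), Lep (-0.050 to 1.51), Adipoq (-0.15 to 0.39), Pparg (-0.050 to 0.41), Srebf1 (-0.058 to 0.32), Scd1 (-0.18 to 0.45), Hmgcs1 (-0.020 to 0.34), Lpl (-0.14 to 0.53), Angptl4 (-0.26 to 0.21), Fabp4 (-0.15 to 0.44), Ccl2 (-0.28 to 0.95), Tfrc (-0.17 to 0.0049), Bhlhe40 (-0.74 to 0.0095), Fkbp5 (-0.40 to 0.26), Cidea (-1.41 to 0.58), Ppara (-0.77 to 0.14). Of 75 genes named, 45 kept their sign under every alternative that kept them. Krt10, which the filter left out of the fit of the Con arrays alone, differed by 0.027 within Con in the fit of 4 group means, against -1.12 on average. None of the reversals concerns a called gene, and the cause was not tested. Signal at the floor leaves only bounds for the genes described there.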
